A study of Rattus norvegicus with 6 samples.

Results

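A set of 10 genes tied to lipid-associated and foreign-body macrophages were followed in rat liver that had been injured and covered with a haemostatic dressing. They are Gpnmb, Trem2, Spp1, Cd9, Ctsk, Acp5, Lgals3, Fabp5, Cd36 and Itgax, 10 of the 20104 genes in the deposited tables, found there by symbol. The tissue was repaired liver taken on day 14 after the trauma. AKOC, a name the labels do not spell out in a series about kaolin scales anchored on cotton, covered the wound in 3 samples. Quik-clot, a commercial haemostatic dressing that served as the control, covered it in the other 3. Both groups were injured and dressed, so neither shows uninjured liver, and the labels used here give no strain, sex or age. The question in the design text is how much chronic inflammation each dressing leaves behind.

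Lipid-associated macrophages are tissue macrophages that gather around dying, lipid-laden cells. Their receptor TREM2 senses lipids and signals through the adaptor TYROBP, and the programme includes the lysosomal glycoprotein GPNMB, the secreted phosphoprotein osteopontin (SPP1), the tetraspanin CD9 and lipid-handling proteins such as CD36 and FABP5. Macrophages that meet a solid material too large to engulf can fuse into foreign-body giant cells, which share with osteoclasts the protease cathepsin K (CTSK) and tartrate-resistant acid phosphatase (ACP5). In liver many of these genes are not private to macrophages: bile duct cells make osteopontin, and hepatocytes and endothelial cells can carry CD36.

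Of the 10 genes 9 had enough counts to be tested, and 0 of them passed the threshold, an adjusted p under 0.05 in edgeR's quasi-likelihood test with Benjamini-Hochberg adjustment over all 13872 genes tested. The share of all genes called was 0% as well, so the comparison had no call against which to read these genes. The lowest adjusted p among the 9 was 0.314, for Spp1. For 3 of the 9 the 2 sets of libraries did not overlap: Fabp5 was higher in every AKOC library, and Gpnmb and Spp1 were lower. Over all genes tested there was no overlap in 18.4%, with AKOC higher in 9.53% and lower in 8.84%. Without Quik-clot replicate 2, 6 of the 9 genes did not overlap, against 36% of all genes. The count was 4 without Quik-clot replicate 3 (27.6% of all genes) and 3 without Quik-clot replicate 1 (27.4%) or AKOC replicates 1, 2 or 3 (31.2%, 27% and 25.8%). With all 6 libraries the 3 genes without overlap had an unadjusted p under 0.05, against 12% of all genes, 6.48% higher and 5.57% lower. The median log2 fold change, AKOC over Quik-clot, was -0.16 over the 9 genes, of which 3 were positive and 6 negative, and -0.015 over all genes. The genes therefore did not lie on one side.

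**Figure D1:**
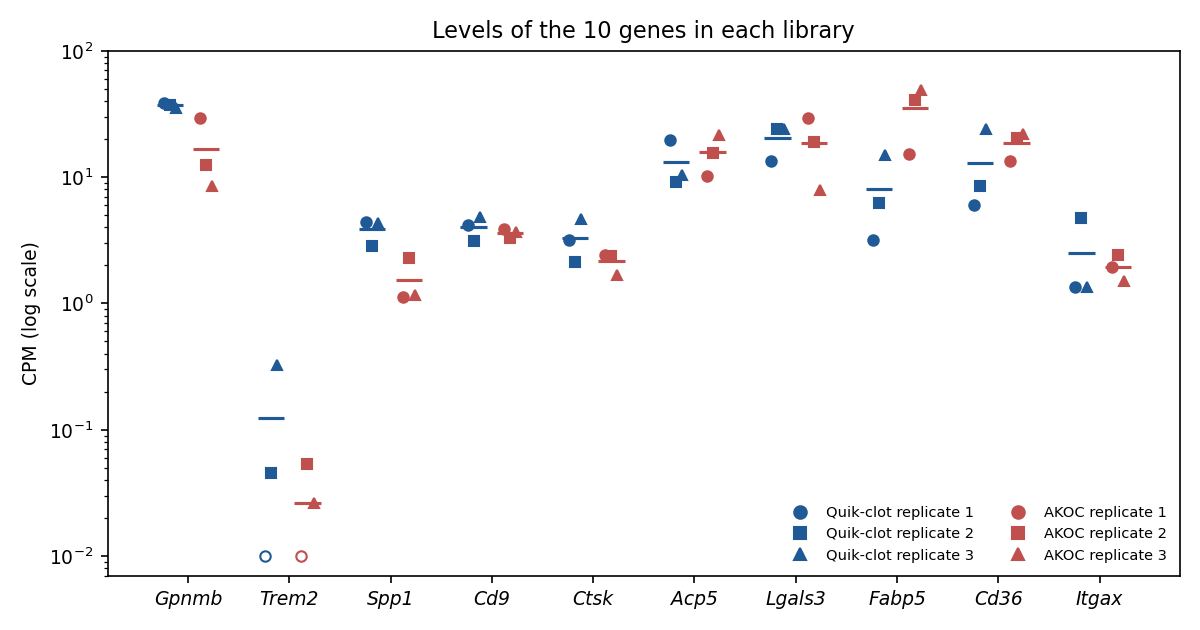
Level of each of the 10 genes in each library, as CPM (counts per 1000000 of the TMM-scaled library, which evens out library composition) on a log axis; short lines are the means of 3 libraries and open symbols at the bottom mark libraries with 0 counts. Gpnmb and Spp1 lay lower and Fabp5 higher in all 3 AKOC libraries, while Trem2 stayed below 0.33 CPM in every library.

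The regulatory sequence in front of Gpnmb and Spp1 is shown because these 2 genes had the lower levels with AKOC without overlap. RefSeq (GRCr8 build; the authors counted on mRatBN7.2) gave the 250 bases before the annotated start of 8 of the 10 genes. Capitals mark matches, on either strand, to 4 motifs: CACGTG (E-box) and TCATGTG (M-box), both read by the microphthalmia family of lysosomal and osteoclast gene regulators, TGANTCA (AP-1) and the PU.1 word GAGGAAGT, a myeloid motif. The Gpnmb window is chr4:79340878-79341127 on the plus strand and the Spp1 window chr14:5619805-5620054 on the minus strand, both written 5′ to 3′.
Gpnmb: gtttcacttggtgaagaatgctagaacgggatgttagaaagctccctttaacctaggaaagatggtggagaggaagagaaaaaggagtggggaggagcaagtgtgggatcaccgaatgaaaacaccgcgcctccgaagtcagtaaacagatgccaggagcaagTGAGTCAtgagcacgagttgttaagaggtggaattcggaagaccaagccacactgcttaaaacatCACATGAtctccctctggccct
Spp1: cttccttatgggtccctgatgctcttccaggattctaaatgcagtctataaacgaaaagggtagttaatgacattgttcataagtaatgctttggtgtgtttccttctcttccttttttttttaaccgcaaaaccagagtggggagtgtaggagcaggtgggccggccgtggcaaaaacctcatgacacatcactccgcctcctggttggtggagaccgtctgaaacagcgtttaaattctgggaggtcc
Gpnmb had an M-box starting 22 bases before the gene start and an AP-1 match starting 87 bases before it. None of these words was found in the Spp1 window. Among the other genes, Ctsk had an M-box at 151 bases and Itgax an AP-1 match at 56 bases before the start. Over 33469 promoters of the same length, the M-box occurred in 3.07%, AP-1 in 6.34%, the E-box in 5.59% and the PU.1 word in 2.04%. A match is a word in the sequence and was not tested as a binding site.

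Trem2, the lipid receptor that defines the programme, was near the limit of detection. It had 0, 2 and 12 counts in Quik-clot replicates 1, 2 and 3 and 0, 2 and 1 in the AKOC libraries. All but Quik-clot replicate 3, at 0.324 CPM, lay under the floor of 3 counts, which is 0.0653 to 0.0811 CPM depending on the library. The filter on low counts removed it, so no fold change is given. Its adaptor Tyrobp, which many myeloid cells carry, stood at 12.2, 26.2 and 17.3 CPM with Quik-clot and 15.3, 14.3 and 12.6 CPM with AKOC. With its defining receptor this low, the list is read here as 10 genes and not as a population of lipid-associated macrophages.

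Gpnmb, a transmembrane glycoprotein of lysosome-rich macrophages, stood at 38.6, 37.1 and 34.9 CPM in the Quik-clot libraries and at 29.4, 12.5 and 8.55 CPM in AKOC replicates 1, 2 and 3. The Quik-clot libraries were nearly level, and the AKOC libraries spread 3.44-fold, with AKOC replicate 1 closest to the controls. Means were 36.9 ± 1.86 and 16.8 ± 11.1 CPM (SD, n = 3 per dressing, as for all means here). The fitted log2 fold change was -1.13 ± 0.41 (SE; adjusted p = 0.375), which corresponds to a level 2.19-fold higher with Quik-clot. Without AKOC replicate 1 it was -1.81 ± 0.19 with an adjusted p of 0.0675, still short of the threshold. Leaving out AKOC replicate 2 gave -0.96 ± 0.48, and leaving out AKOC replicate 3 gave -0.81 ± 0.34. The unadjusted p was above 0.05 when Quik-clot replicate 1 (0.0605), Quik-clot replicate 2 (0.0560) or AKOC replicate 2 (0.0881) was left out. In the deposited FPKM (fragments scaled to gene length and to depth), which carry no TMM scaling, AKOC replicate 1 at 13.72 lay just above Quik-clot replicate 3 at 13.65, so the groups touched on that scale.

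Spp1, which encodes osteopontin, a secreted ligand of CD44 and integrins, stood at 4.44, 2.87 and 4.32 CPM with Quik-clot and 1.12, 2.30 and 1.17 CPM with AKOC. Every AKOC library was below every Quik-clot library, and the nearest pair was AKOC replicate 2 and Quik-clot replicate 2. The log2 fold change was -1.34 ± 0.35 (adjusted p = 0.314), a level 2.53-fold higher with Quik-clot. DESeq2, run on the same counts, was the only tool of those tried to call it, with an adjusted p of 0.0288. It was also the only one of the 9 genes called there, where 2.09% of all genes were called, 1.39% higher and 0.693% lower. Markers of bile duct cells, which also make osteopontin, summed to 25.3 to 34.4 CPM with AKOC and 23.1 to 37.4 CPM with Quik-clot over 6 genes, with Krt7 at 0 to 4 counts; their part in the Spp1 difference was not tested. The osteopontin receptors were close between dressings: of 9 tested, 3 were positive and 6 negative, 0 passed the threshold, and the list median was -0.050. Cd44, a main osteopontin receptor, had a log2 fold change of -0.35 ± 0.36, and the integrin chains Itga5, Itgb3 and Itga4 had 0.22 ± 0.20, 0.28 ± 0.28 and -0.26 ± 0.28.

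Fabp5, a small cytosolic carrier of fatty acids found in macrophages and in epithelial cells, had the largest difference of the 9. It stood at 3.20, 6.26 and 14.8 CPM in Quik-clot replicates 1, 2 and 3 and at 15.2, 41.01 and 48.5 CPM in the AKOC libraries. The groups did not overlap, but AKOC replicate 1 was barely above Quik-clot replicate 3, and levels varied 4.64-fold within Quik-clot. The means were 34.9 ± 17.5 CPM with AKOC and 8.10 ± 6.03 CPM with Quik-clot, with a log2 fold change of 2.11 ± 0.62 (adjusted p = 0.331), or 4.33-fold. It was 2.89 without Quik-clot replicate 3 and 1.73 without Quik-clot replicate 1.

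Cd36, the scavenger receptor that takes up long-chain fatty acids and oxidised lipoproteins, stood at 6.03, 8.55 and 23.9 CPM with Quik-clot and 13.4, 20.2 and 21.8 CPM with AKOC. Quik-clot replicate 3 was the highest of all 6 libraries and the other Quik-clot libraries the lowest, so the groups overlapped. The log2 fold change was 0.53 ± 0.49 (adjusted p = 0.672). It was 1.34 ± 0.27 without Quik-clot replicate 3, with an adjusted p of 0.463, and 0.19 ± 0.43 without Quik-clot replicate 1. Quik-clot replicate 3 also held the highest summed level of 6 neutrophil markers, 105 CPM against 6.99 to 46.7 CPM in the other libraries. Nearly all of that was S100a8 (43.0 CPM) and S100a9 (55.9 CPM). Csf3r was instead highest in AKOC replicate 1, at 6.78 CPM against 4.13 CPM in Quik-clot replicate 3. A link between these markers and Cd36 was not tested.

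A wider list held fatty acid carriers and importers, the scavenger receptors Scarb1 and Scarb2 and the regulators Ppara and Pparg. Of 14 tested, 4 were positive, as Fabp5 and Cd36 were, and 10 negative, with a median of -0.26. In this list 0 passed the threshold. Among the binding proteins Fabp1, Fabp2 and Fabp3 were positive and Fabp4, Fabp7 and Fabp12 negative. Fabp1 had 0.81 ± 0.42, with overlap, at 1079 ± 604 CPM with Quik-clot and 1897 ± 620 CPM with AKOC. Fabp2, the intestinal form, had a log2 fold change of 1.49 ± 0.63 (1.40 ± 0.907 CPM with Quik-clot, 3.93 ± 2.07 CPM with AKOC) and Fabp3, the heart form, 0.78 ± 0.35. The fatty acid receptor Ppara had -0.63 ± 0.22 and the hepatocyte transporter Slc27a5 -0.54 ± 0.26. Fabp4, a marker of fat cells and of lipid-loaded macrophages, was low in both groups, at 1.18 ± 0.539 and 1.26 ± 0.830 CPM with AKOC and Quik-clot. Adipocyte markers summed to 38.6 to 47.6 CPM with AKOC and 46.6 to 56.5 CPM with Quik-clot over 3 genes, nearly all of it Cidec, with Adipoq at 0 or 1 counts. Hepatocyte markers summed to 88875 to 144620 CPM with AKOC and 81635 to 115310 CPM with Quik-clot, of which Alb made up 76.7% to 84.98%; 4 of the 6, Apoa1, Cps1, Tat and Serpina1, had negative log2 fold changes. Markers of sinusoidal and vascular endothelium summed to 260 to 297 and 296 to 349 CPM; the part of either cell type in Fabp5 and Cd36 was not tested.

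**Figure D2:**
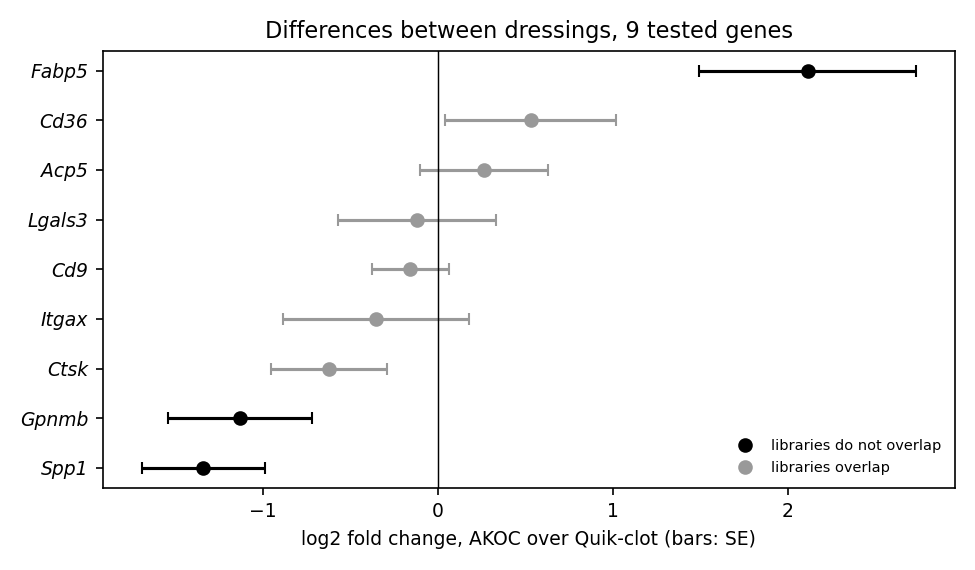
Log2 fold change of the 9 tested genes, AKOC over Quik-clot, from edgeR, with bars of 1 SE; black points are genes whose libraries did not overlap between dressings. Fabp5 stood at 2.11, Gpnmb at -1.13 and Spp1 at -1.34, and the other 6 lay between -0.62 and 0.53.

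Ctsk and Acp5, the enzymes shared by osteoclasts and giant cells, had differences of opposite sign. Ctsk, a collagen-degrading protease, stood at 3.20, 2.11 and 4.65 CPM with Quik-clot and 2.40, 2.38 and 1.67 CPM with AKOC. The overlap came from Quik-clot replicate 2, which lay below 2 AKOC libraries. Its log2 fold change was -0.62 ± 0.33 (adjusted p = 0.481), with -0.30 ± 0.32 without Quik-clot replicate 3 and -0.87 ± 0.29 (adjusted p = 0.229) without Quik-clot replicate 2. Acp5 stood at 19.8, 9.08 and 10.4 CPM with Quik-clot and 10.1, 15.5 and 21.6 CPM with AKOC. Its high and low libraries were spread over both dressings, and the log2 fold change of 0.26 ± 0.37 (adjusted p = 0.789) became -0.033 ± 0.38 when AKOC replicate 3 was left out and 0.69 ± 0.31 without Quik-clot replicate 1.

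Genes of macrophage fusion and foreign-body giant cells were mostly on the negative side, with 3 of 16 positive, 13 negative, 0 past the threshold and a median of -0.23. The receptor chain Il4r and its transcription factor Stat6, which carry the interleukin 4 signal that drives fusion, had log2 fold changes of -0.31 ± 0.10 and -0.33 ± 0.10. Their levels did not overlap, at 71.6, 66.4 and 63.0 CPM against 56.3, 53.6 and 52.0 CPM for Il4r and 34.4, 32.3 and 32.99 CPM against 28.3, 26.9 and 23.9 CPM for Stat6, Quik-clot first. The mannose receptor Mrc1 had -0.40 ± 0.14. On the other side was Ocstamp, a membrane protein needed for fusion, at 0.849, 1.72 and 1.30 CPM with Quik-clot and 2.20, 2.38 and 2.97 CPM with AKOC (log2 fold change 0.96 ± 0.32, adjusted p = 0.358). The macrophage elastase Mmp12, named after its values were seen, had -1.39 ± 0.52 at a mean of 0.253 CPM with AKOC and 0.666 CPM with Quik-clot. It was the fifth gene of the list with an unadjusted p under 0.05 in edgeR. Of the 16 tested, 1 was higher and 4 lower at that p, where 6.48% of all genes were higher and 5.57% lower. The list as a whole was not tested. Over 5 osteoclast and giant cell markers the summed level was 4.36 to 4.90 CPM with AKOC and 3.22 to 5.86 CPM with Quik-clot, and Calcr, the calcitonin receptor of osteoclasts, had 1 count in 1 AKOC library and 0 in the other libraries.

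The lysosomal setting of Gpnmb, Ctsk and Acp5 was mixed. Of 19 lysosomal proteases, hydrolases and membrane proteins, 9 were positive and 10 negative, with 0 past the threshold and a median of -0.021. The tetraspanin Cd63 stood at 54.4, 57.8 and 71.4 CPM with Quik-clot and 43.6, 40.2 and 41.8 CPM with AKOC, without overlap (log2 fold change -0.55 ± 0.13). Cathepsin L (Ctsl) had -0.72 ± 0.26, cathepsin S (Ctss) -0.67 ± 0.32 and the alpha-galactosidase Gla 0.38 ± 0.10. Of 11 microphthalmia-family factors and proton pump subunits 10 were negative, with 0 past the threshold and a median of -0.085. The smallest unadjusted p-values in that list belonged to the pump subunits Atp6v1h (-0.28 ± 0.13), Atp6v0d1 (0.18 ± 0.11) and Atp6v0d2 (-0.59 ± 0.41) and to the factor Tfec (-0.25 ± 0.19).

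Partners of TREM2 and of lipid-laden macrophages had 3 positive and 11 negative members of 14, a median of -0.27 and 0 past the threshold. The cholesteryl ester hydrolase Nceh1 stood at 30.7, 23.5 and 41.6 CPM with Quik-clot and 15.1, 11.4 and 5.42 CPM with AKOC. These levels did not overlap, and the log2 fold change was -1.59 ± 0.37 (adjusted p = 0.303). Mertk, a receptor for dying cells, had -0.54 ± 0.14 and lipoprotein lipase (Lpl) -0.48 ± 0.26. Plin2, the coat protein of lipid droplets in hepatocytes and macrophages alike, had 0.54 ± 0.21, with 81.6, 82.2 and 54.9 CPM with Quik-clot and 90.5, 99.4 and 128 CPM with AKOC.

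**Figure D3:**
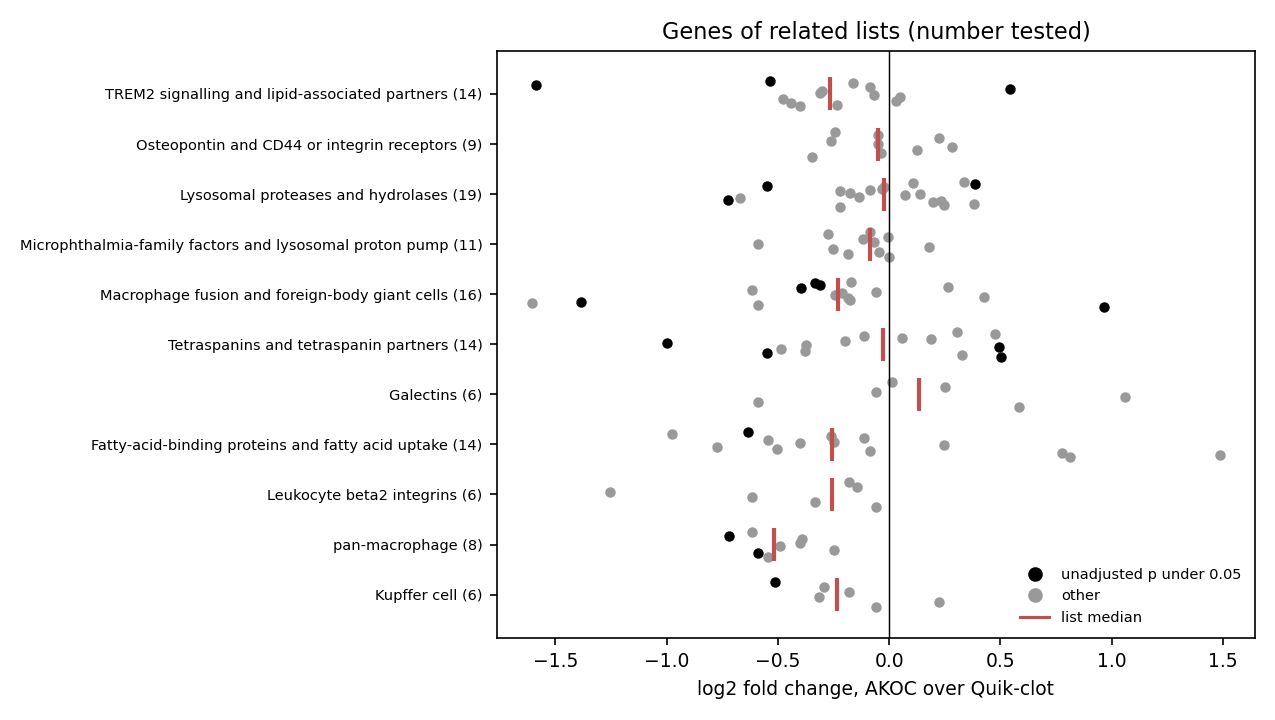
Log2 fold change, AKOC over Quik-clot, of every tested gene in 9 related lists and 2 macrophage marker lists; black points have an unadjusted p under 0.05 and red bars are list medians. Medians lay between -0.52 (pan-macrophage markers) and 0.13 (galectins).

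Lgals3, galectin 3, a sugar-binding protein of activated macrophages, stood at 13.4, 23.9 and 23.9 CPM with Quik-clot and 29.5, 18.8 and 7.85 CPM with AKOC. The highest and the lowest library were both AKOC, a 3.76-fold spread within that dressing. The log2 fold change of -0.12 ± 0.45 (adjusted p = 0.925) turned to 0.012 without Quik-clot replicate 2, 0.014 without Quik-clot replicate 3 and 0.25 when AKOC replicate 3 was left out. AKOC replicate 1, closest to the controls for Gpnmb, thus had the most Lgals3. Of 6 other galectin genes tested 4 were positive and 2 negative, with 0 past the threshold; Lgals1 had 0.58 ± 0.33, Lgals9 0.25 ± 0.16, Lgals2 -0.59 ± 0.38 and Lgals5 1.06 ± 1.04.

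Cd9, a tetraspanin that organises membrane partners, varied least of the 9 over the 6 libraries. It stood at 4.16, 3.09 and 4.84 CPM with Quik-clot and 3.86, 3.31 and 3.65 CPM with AKOC, and all AKOC libraries lay inside the Quik-clot range. The log2 fold change was -0.16 ± 0.22 (adjusted p = 0.788). It was -0.0082 without Quik-clot replicate 3 and -0.32 without Quik-clot replicate 2. Other tetraspanins and their partners divided evenly, 7 positive and 7 negative of 14 with 0 past the threshold. Besides Cd63, these were Cd151 (0.49 ± 0.11; 28.5, 33.9 and 32.1 CPM with Quik-clot, 44.6, 47.1 and 41.4 CPM with AKOC), Cd81 (0.50 ± 0.17) and Tspan8 (-1.0001 ± 0.36). Platelet markers, measured because platelets carry Cd9, summed to 10.6 to 20.05 CPM with AKOC and 9.90 to 18.5 CPM with Quik-clot. Itga2b made up most of every sum, while Gp1ba had 0 to 2 counts, Gp9 1 to 5 and Ppbp 0 to 10.

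Itgax, the CD11c integrin chain of dendritic cells and inflammatory macrophages, stood at 1.35, 4.77 and 1.35 CPM with Quik-clot and 1.93, 2.40 and 1.51 CPM with AKOC. A single library, Quik-clot replicate 2, was above the rest, and without it the log2 fold change went from -0.35 ± 0.53 (adjusted p = 0.810) to 0.53 ± 0.32 (adjusted p = 0.455). The same library had the highest summed level of the 8 pan-macrophage markers, and the related integrin chains Itgam (15.2 CPM against 3.81 to 7.88 CPM elsewhere), Itgal (45.3 against 19.6 to 33.1 CPM) and Itgad (1.31 against 0.133 to 0.339 CPM) were highest there too. All 6 leukocyte integrin genes and ligands tested were negative, Icam2 among them (-0.18 ± 0.18), with 0 past the threshold. Itgb2 and Icam2 were also highest in Quik-clot replicate 2, at 58.4 and 10.4 CPM, and Icam1 in Quik-clot replicate 3. Without Quik-clot replicate 2 Itgam turned to 0.14 ± 0.35. Dendritic cell markers summed to 7.93 to 11.5 CPM with AKOC and 9.62 to 11.5 CPM with Quik-clot.

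Compared per length, in deposited FPKM, the 10 genes spanned a wide range. After Quik-clot the order of mean levels was Lgals3 (17.998 ± 4.66), Gpnmb (16.5 ± 2.61), Fabp5 (11.9 ± 7.57), Acp5 (6.42 ± 3.397), Cd36 (4.03 ± 2.56), Cd9 (3.59 ± 0.619), Spp1 (2.58 ± 0.622), Ctsk (2.36 ± 0.699), Itgax (0.164 ± 0.136) and Trem2 (0.0965 ± 0.133). After AKOC it was Fabp5 (50.2 ± 23.0), Lgals3 (16.3 ± 10.7), Gpnmb (7.37 ± 5.54), Acp5 (7.07 ± 2.29), Cd36 (5.75 ± 1.03), Cd9 (3.09 ± 0.513), Ctsk (1.49 ± 0.355), Spp1 (0.952 ± 0.344), Itgax (0.119 ± 0.0252) and Trem2 (0.0206 ± 0.0204). Fabp5 thus ranked below Lgals3 and Gpnmb with Quik-clot and above both with AKOC. Over the order of the 6-library means, Cd9 was above Ctsk and Spp1 above Itgax in all 6 libraries, while every other pair of neighbours changed places in at least 1 library. The FPKM of Itgax rest on an implied length of 15922 bases, against 661 to 3093 for the other 9, which lowers its FPKM.

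The 9 tested genes were also set against the macrophage content that the libraries show. The 8 pan-macrophage markers were all negative, with 0 past the threshold and a median of -0.52, and their summed level was 309, 514 and 362 CPM with Quik-clot and 274, 310 and 242 CPM with AKOC. These ranges overlapped by a narrow margin, and Quik-clot replicate 2 was the highest. Without that library 5 of the 8 markers were negative, with a median of -0.060, and Aif1 (0.015), Fcer1g (0.011) and Itgam (0.14) were positive. Kupffer cell markers summed to 641, 1121 and 822 CPM and to 814, 844 and 553 CPM, so resident macrophages were readily seen in all 6 libraries. In bulk tissue, fewer macrophages and less RNA per macrophage cannot be told apart. Of the pan-macrophage markers Cd14 (-0.72 ± 0.17) and Csf1r (-0.59 ± 0.24), and of the Kupffer markers Cd163 (-0.51 ± 0.16), had an unadjusted p under 0.05. Over all genes tested 12% did, 6.48% higher and 5.57% lower. Without Quik-clot replicate 2 Csf1r was at -0.31 ± 0.17 and Cd14 at -0.81 ± 0.18.

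As a percentage of the summed pan-macrophage markers, Fabp5 was 1.04%, 1.22% and 4.10% with Quik-clot and 5.56%, 13.2% and 20.03% with AKOC. The groups did not overlap on this scale, and the mean was 6.11-fold higher with AKOC, with an exact two-sided permutation p of 0.1, the smallest that 3 against 3 can give. This p and the other permutation p-values printed on this scale are not adjusted for the 9 genes compared. With Benjamini-Hochberg adjustment over the 9 the permutation p was 0.6 for Fabp5, Gpnmb and Spp1 alike. The permutation test compared means of log2 values, whereas the folds given are ratios of arithmetic means. Gpnmb was 12.5%, 7.21% and 9.66% with Quik-clot and 10.7%, 4.02% and 3.53% with AKOC, and Spp1 1.44%, 0.557% and 1.20% and 0.410%, 0.740% and 0.484%. The means remained lower with AKOC, at ratios of 0.622 for Gpnmb and 0.512 for Spp1, but both overlapped, with exact permutation p-values of 0.3 and 0.2. The overlap of Spp1 came from Quik-clot replicate 2. Against Kupffer cell markers the log2 ratios of means were -1.03 and -1.25. The other 6 genes overlapped as well, with Cd36 at a ratio of means of 1.997 and Ctsk at 0.854, and exact permutation p-values from 0.3 to 1. Cd9 (1.21), Lgals3 (1.29) and Itgax (1.21) had ratios above 1 on this scale, although their log2 fold changes were negative.

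**Figure D4:**
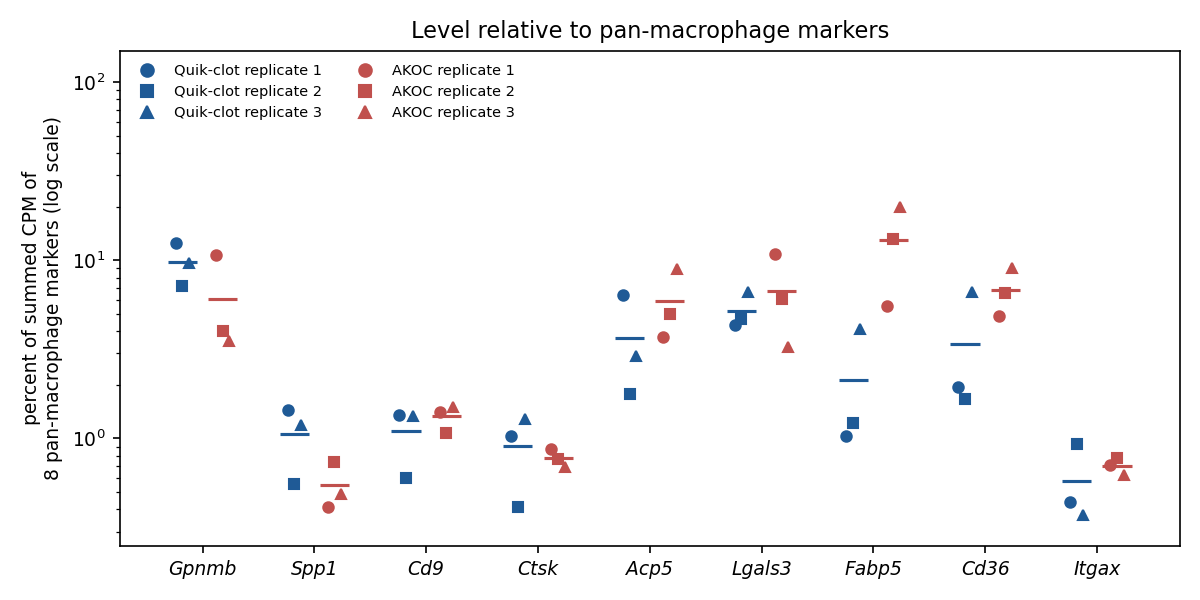
Level of the 9 tested genes as a percentage of the summed CPM of 8 pan-macrophage markers in the same library, on a log axis; short lines are means of 3 libraries. Only for Fabp5 did the AKOC libraries, 5.56% to 20.03%, lie wholly above the Quik-clot libraries, 1.04% to 4.10%; for the other 8 the groups overlapped.

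Over the 9 related lists together, 104 different genes were tested, of which 34 were positive and 70 negative with a median of -0.13, and 0 passed the threshold. An unadjusted p under 0.05 was reached by 5 higher and 10 lower, 14.4% against 12% of all genes, and 21.2% had dressings that did not overlap, against 18.4%. Both shares were near those of the whole table.

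Total counts ran from 40402312 to 41455378, so depth differed little between libraries. No library was highest for more than 3 of the 9 genes. Stellate cell and myofibroblast markers summed to 96.8 to 122 CPM with AKOC and 62.1 to 112 CPM with Quik-clot. Lrat and Reln made up most of every sum. Of the 6 markers 4 were positive and 2 negative, Acta2 (-0.13 ± 0.18) and Col1a1 (-1.04 ± 0.68).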

How the data were processed

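RNA from 6 rat liver samples, 3 per dressing, was sequenced after TRIzol extraction and VAHTS Universal V6 library preparation, per the labels' protocols. The authors deposited raw read counts per gene, made with fastp, HISAT2 and HTSeq on mRatBN7.2 per the submitters' processing notes. The sources used here do not give their versions, annotation or strand setting, so reads of overlapping or similar genes may be split or pooled. The authors also deposited FPKM, which equal count over a gene length and the library total (largest relative spread 1.12e-06), so the tables are 1 measurement. Groups and replicate numbers came from sample titles; no label ties a sample to its own animal, and the p-values then cover only sample-to-sample spread, possibly technical. No pair of libraries of the same dressing agreed within sampling noise (chi-square per degree of freedom of at least 142).

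Genes were kept by filterByExpr (minimum count 10, minimum total 15), scaled by TMM (factors 0.902 to 1.12) and tested with edgeR 4.0.16 in R 4.3.3 (quasi-likelihood, two-sided, dressing as the only term, Benjamini-Hochberg over 13872 genes). SE is the log2 fold change over the square root of F. CPM are counts per 1000000 after TMM. On simulated counts for this comparison (13872 genes, 200 changed) edgeR recovered 31% of genes changed 2-fold, 97% of 4-fold and 94% of 8-fold changes. It made 7 false calls, and 0 calls in a simulation where nothing changed. The simulation gave every gene the same spread, a coefficient of variation of 27% beyond counting error. These rates therefore do not carry over to genes that varied more between libraries, such as Fabp5. Alternatives were DESeq2 1.42.0, limma 3.58.1 (voom with sample weights; limma-trend on log2(FPKM + 1) and log2(FPKM + 0.1)), other size factors and filters, a replicate block and leaving out each library. The members and lists were chosen with earlier results of these data known. All 10 members are named, and of each related list the 4 genes of smallest unadjusted p. Mmp12, Fabp1, Fabp7, Fabp12, Scarb1, Scarb2, Pparg, Itgb2 and Icam1 are named besides, after their values were seen. Dcstamp, Lgals12, Plin1 and Lep were not analysed here. Floors cover counting error only.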

Additional observations from a re-analysis of the deposited data

How the results depend on the processing

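Of 135 member values under 15 alternatives, 128 kept their direction and their side of the threshold. The 6 that turned were Itgax with limma-voom (0.0097) and without Quik-clot replicate 2 (0.53), Lgals3 without Quik-clot replicate 2 (0.012), Quik-clot replicate 3 (0.014) or AKOC replicate 3 (0.25), and Acp5 without AKOC replicate 3 (-0.033); the cause was not tested. Leaving out libraries took Acp5 up to 0.69, Lgals3 down to -0.61 and Itgax down to -0.65. The other change was Spp1, which DESeq2 called (log2 fold change -1.35). DESeq2 called 1 member and 289 genes, and the remaining 14 alternatives called 0 members. With the replicate number as a block 1 gene and 0 members were called. In that fit Fabp5 had 2.22 ± 0.22, Cd36 0.75 ± 0.30 and Gpnmb -1.33 ± 0.33, each with a smaller SE than without the block. Spp1, at -1.39 ± 0.42, had a larger SE. Over all genes, deviations of same-numbered libraries from their dressing means were not positively correlated (-0.0719, -0.0822 and -0.201). These correlations cannot settle whether the samples were paired. Leaving out a library gave 0 to 18 called genes (18 without Quik-clot replicate 2), 2 to 4 members at an unadjusted p under 0.05, and 3 to 6 members without overlap (6 without Quik-clot replicate 2; an alternative added after seeing the data). Over all genes the share without overlap was then 25.8% to 36%, the highest also without Quik-clot replicate 2. With library totals or deposited FPKM, 2 members did not overlap, since Gpnmb touched. Set against Kupffer cell markers in place of pan-macrophage markers, the log2 ratio of Itgax turned from 0.28 to -0.0092. With no filter Trem2 had -2.10 ± 1.48, from at most 12 counts. Median shifts of all genes stayed within -0.0913 and 0.0014 on the log2 scale. The count of negative pan-macrophage markers, 8 of 8, was 5 to 8 with a library left out, 5 without Quik-clot replicate 2.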
